A study of Homo sapiens with 4 samples.

Results

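The cells described here were 541 cells of the enzalutamide-resistant line RES-B that carried transcripts of the prostate kallikreins KLK2, KLK3 and KLK4. They were chosen by their measured counts: a cell entered when its unique molecular identifiers (UMIs, each counting 1 captured RNA molecule) for the 3 genes summed to 4 or more. They made up 541 of the 4239 RES-B cells and of the 15452 cells of the series that had at least 1500 detected genes, at least 5000 UMIs and under 20% of UMIs from mitochondrially encoded genes. Throughout, they are set beside the 1860 RES-B cells with a kallikrein sum of 0, called zero cells below.

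The series profiled single cells of LNCaP, an androgen-dependent human prostate cancer cell line, by droplet RNA sequencing of the 3' ends of transcripts. Parental LNCaP cells received 0.1% DMSO for 48 h (LNCaP), or 10 µM of enzalutamide, a blocker of androgen signalling, for 48 h (LNCaP-ENZ48). RES-A and RES-B are LNCaP derivatives made resistant by long exposure to agents against androgen signalling, and both were kept in 10 µM enzalutamide. Each condition was 1 library, so cells of RES-B share their source and no comparison below has a replicate check. Intervals are 95% exact intervals that cover counting error only, and no p-values are given.

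KLK2, KLK3 and KLK4 are secreted serine proteases of the prostate epithelium, encoded side by side on chromosome 19, and KLK3 encodes prostate-specific antigen. Androgens such as testosterone raise their transcription through response elements in the DNA near these genes. Enzalutamide blocks this signalling, and loss of kallikrein RNA is a common readout of the block.

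The promoters of the 3 genes are shown because the cells were selected on their joint output. Each runs from 250 bases before to 50 bases after the annotated start (RefSeq, GRCh38.p14). KLK3 lies at chr19:50854665-50854964 on the plus strand, KLK2 at chr19:50873189-50873488 on the plus strand and KLK4 at chr19:50911346-50911645 on the minus strand. Capitals mark GAACA and AGTGCT spaced by 3 bases, with the A before it where AGAACA, one arm of the androgen response element, is complete.
KLK3: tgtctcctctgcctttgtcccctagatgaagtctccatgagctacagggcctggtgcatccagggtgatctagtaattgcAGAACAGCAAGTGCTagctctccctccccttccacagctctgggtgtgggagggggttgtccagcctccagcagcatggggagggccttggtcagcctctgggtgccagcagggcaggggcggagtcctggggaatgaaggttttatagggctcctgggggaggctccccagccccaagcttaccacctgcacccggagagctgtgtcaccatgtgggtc
KLK2: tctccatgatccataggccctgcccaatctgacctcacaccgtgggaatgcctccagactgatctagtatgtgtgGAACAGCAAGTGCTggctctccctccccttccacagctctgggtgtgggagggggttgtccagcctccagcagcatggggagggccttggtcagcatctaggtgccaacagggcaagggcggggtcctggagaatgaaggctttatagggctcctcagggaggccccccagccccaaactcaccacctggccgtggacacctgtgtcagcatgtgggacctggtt
KLK4: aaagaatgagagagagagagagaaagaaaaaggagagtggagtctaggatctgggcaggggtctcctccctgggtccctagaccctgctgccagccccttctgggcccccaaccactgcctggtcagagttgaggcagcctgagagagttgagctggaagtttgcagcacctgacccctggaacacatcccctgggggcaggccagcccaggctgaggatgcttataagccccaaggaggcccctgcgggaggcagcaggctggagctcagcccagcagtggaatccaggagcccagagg
The marked element, known as the proximal androgen response element of KLK3, began 169 bases before the start of KLK3 and the same letters began 175 bases before that of KLK2. It was chosen after the sequences were seen. On either strand it was present in 15 of 35114 promoters of this length (0.0427%), and AGAACA on either strand was present in 14.8%. Neither string was found in the KLK4 window. Aligned end to end, the KLK2 and KLK3 promoters were 78.1% identical, against 42.9% for KLK2 and KLK4 and 45.2% for KLK3 and KLK4. Of the 50-base words in the last 500 bases of KLK2 transcripts, 0.268% also occurred in a KLK3 transcript. A read that lies wholly within such a shared stretch cannot be assigned to 1 of the 2 genes. A read that reaches past it may be, and no reads were examined.

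To place the RES-B cells, kallikrein counts were compared with the other libraries under the same rule. RES-B held 118 kallikrein CPM (UMIs of a gene per 1000000 UMIs of the library or set), LNCaP 1200, LNCaP-ENZ48 155 and RES-A 0.409. A sum of 4 or more was reached by 12.8% of RES-B cells (interval 11.8 to 13.8), by 1764 of 2019 LNCaP cells (87.4%), by 746 of 4565 LNCaP-ENZ48 cells (16.3%) and by 0 of 4629 RES-A cells, which allows a share of up to 0.0648% if a floor of 3 cells is taken (0.0797% as the upper exact limit). Depth differed between libraries, with medians of 26502 UMIs in LNCaP, 13968 in LNCaP-ENZ48 and 12480 in RES-B. With every cell thinned to 5000 UMIs, the share was 2.78% (2.31 to 3.32) in RES-B, 6.11% (5.43 to 6.85) in LNCaP-ENZ48 and 51.2% in LNCaP. A sum of 8 or more, as counted, was reached by 3.16% of RES-B and 7.93% of LNCaP-ENZ48 cells. At least 1 kallikrein UMI was seen in 56.1% of RES-B cells and in 0.475% of RES-A cells, at median depths of 12480 and 12164 UMIs. RES-B shared 6 barcodes with LNCaP, 12 with LNCaP-ENZ48 and 4 with RES-A.

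The counts were spread unevenly over RES-B cells. The variance of the sum was 5.48 times its mean, and 2.75 times after each cell was thinned to 5000 UMIs. Zero cells made up 43.9% of RES-B, cells with a sum of 4 or more 12.8% and cells with 8 or more 3.16%. A single kallikrein rate per UMI in all cells, at each cell's own depth, would give Poisson shares of 22.9%, 9.70% and 0.183%. After thinning, 13.1% of cells had a sum of 2 or more, beside a Poisson share of 12.6%. The 541 cells held 56.3% of all kallikrein UMIs of the library.

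**Figure D1:**
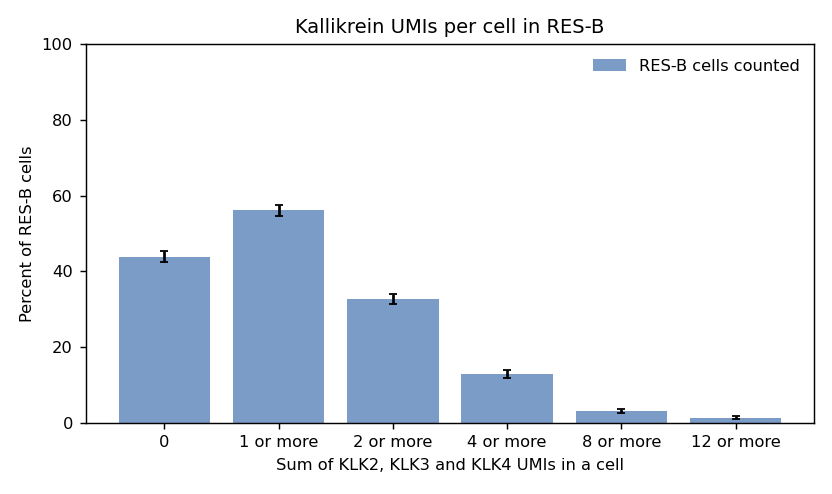
Percent of RES-B cells (y axis) with a kallikrein sum of 0 or at or above each value (x axis). Bars are counted cells with 95% exact binomial intervals, and they fall from 56.1% at 1 or more to 12.8% at 4 or more and 3.16% at 8 or more.

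The threshold cut through a continuous range. Just inside it, 170 cells had a sum of exactly 4, and just outside it 308 cells had a sum of 3. The median sum of the 541 cells was 5 and the highest 64. All 3 genes were seen in 232 of the cells, a pair of them in 248 and a single gene in 61, of which 51 carried KLK4 alone.

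The make-up of the sum shifted as it grew. Over the whole library KLK4 was the most abundant of the 3, at 64.9 CPM against 30.4 for KLK3 and 23.2 for KLK2, whereas KLK3 led in LNCaP (733 CPM, with KLK2 at 321 and KLK4 at 146) and in LNCaP-ENZ48 (93.8 CPM, with KLK4 at 34.6 and KLK2 at 26.2). Within RES-B, KLK4 gave 73.7% (70.9 to 76.5) of the UMIs in cells with a sum of 1, 52.4% (50.2 to 54.6) at 4 to 7 and 35.0% (32.8 to 37.2) at 8 or more. KLK3 gave 11.7%, 25.04% and 43.9% in the same classes. The 134 cells with the highest sums were therefore the only class of RES-B cells, of the 5 classes with any kallikrein UMI, in which KLK3 outnumbered KLK4.

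**Figure D2:**
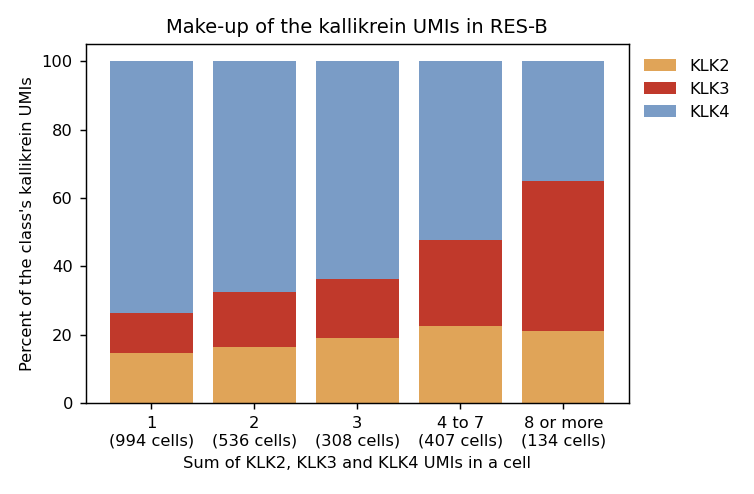
Share of kallikrein UMIs (y axis, percent) from KLK2, KLK3 and KLK4 in RES-B cells grouped by their kallikrein sum (x axis, with the number of cells). The KLK4 part narrows from 73.7% to 35.0% and the KLK3 part widens from 11.7% to 43.9%.

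Each gene was higher in cells grouped by another. In cells with 0, 1, 2 and 3 or more KLK4 UMIs, KLK3 stood at 10.9, 27.9, 43.3 and 110.5 CPM. KLK2 in those cells stood at 11.6, 21.6, 32.5 and 69.4 CPM. Grouped by KLK2, cells with 0 UMIs had KLK4 at 51.6 CPM and cells with 3 or more had it at 218.8 CPM. Depth moved in the same direction, with median UMIs from 12051.5 at 0 KLK4 UMIs to 13782 at 3 or more, a far smaller change than those of the genes.

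A rule on raw UMIs favours deep cells: the 541 cells had a median of 14254 UMIs and zero cells 11949.5. Other genes were therefore compared after each kallikrein-expressing cell was matched to 1 zero cell whose UMIs outside the 3 genes differed by at most 10%. A partner was found for 534 of the 541, and the 7 without one had 30017 to 36788 UMIs. Matched medians were 14175 and 14155.5 UMIs. UMIs were summed over each set of 534 cells, given as CPM, and compared as log2 of the ratio of kallikrein-expressing to zero cells. A gene counts below as measured at 20 CPM or more in either set, and as higher or lower at a log2 ratio of at least 0.5 in size.

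Of 5503 measured genes, 105 (1.91%) were higher and 140 (2.54%) were lower in the kallikrein-expressing cells. Since the cells were selected on kallikrein counts in this library, these values describe them and are not tests. The median log2 ratio over all measured genes was -0.05.

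MAOA, which encodes the mitochondrial enzyme monoamine oxidase A, had the highest ratio among the genes at 50 CPM or more that kept their sign under the alternative settings. It stood at 66.4 CPM in the kallikrein-expressing cells and 14.99 in their matched zero cells, a log2 ratio of 2.15 (1.86 to 2.44). A MAOA UMI was found in 191 of the 534 kallikrein-expressing cells (35.8%) and in 67 of the matched zero cells (12.5%). Most kallikrein-expressing cells thus had no MAOA UMI at this depth. Across all RES-B cells MAOA climbed with the kallikrein sum without a step, from 13.96 CPM at 0 through 24.6, 36.7 and 44.4 at 1, 2 and 3 to 60.1 at 4 to 7 and 78.7 at 8 or more. These classes pool cells of clusters, described below, that differed in MAOA level. Over whole libraries MAOA did not follow the order of the kallikreins: RES-B had 29.3 CPM and RES-A 36.8, while LNCaP had 129.6 and LNCaP-ENZ48 126.

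Of 13 measured genes in a list of luminal transcription factors and their partners, 2 were higher and 0 lower. Their median was 0.16, beside -0.05 over all 5503 measured genes, of which 1.91% were higher and 2.54% lower. PIAS2, a SUMO ligase, stood at 72.1 against 41.3 CPM (0.80, 0.61 to 1.00), and its UMIs were found in 327 of the 534 kallikrein-expressing and 223 of the matched zero cells. GATA2, a zinc finger factor, stood at 99.9 against 68.7 CPM (0.54, 0.38 to 0.70). FOXA1, a factor that opens chromatin in luminal cells, differed by 0.02 (-0.11 to 0.14), and HOXB13, a prostate homeobox factor, by 0.21 (0.06 to 0.36). With partners from the same cluster of cells, GATA2 (0.40) and PIAS2 (0.37) kept their sign and fell under the limit of 0.5.

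Other genes that androgens raise differed among themselves. Of 21 measured, 3 were higher and 1 lower, beside 1.91% and 2.54% of all 5503 measured genes. The list median was 0.09, against -0.05 over all measured genes. NDRG1, C19orf48 and TMPRSS2 were the 3 higher genes. TMPRSS2, a membrane protease whose gene is a classical androgen target, stood at 28.1 against 17.5 CPM (0.68, 0.38 to 0.99). C19orf48 stood at 243 against 129 CPM (0.92, 0.81 to 1.02). When partners came from the same cluster, the ratios were 0.85 for TMPRSS2, 0.98 for C19orf48 and 0.52 for NDRG1. CENPN, a centromere protein gene, was the lower one at -0.57. STEAP2 (0.16), TPD52 (0.02) and KRT8 (0.11) stayed under the limit of 0.5. Among 3 measured genes that androgens lower, CAMK2N1, an inhibitor of CaM kinase II, was higher at 924 against 475 CPM (0.96, 0.90 to 1.02), UGT2B15, which inactivates androgens, was lower (-0.63, -0.91 to -0.35), and FOLH1, the membrane antigen PSMA, differed by 0.15.

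**Figure D3:**
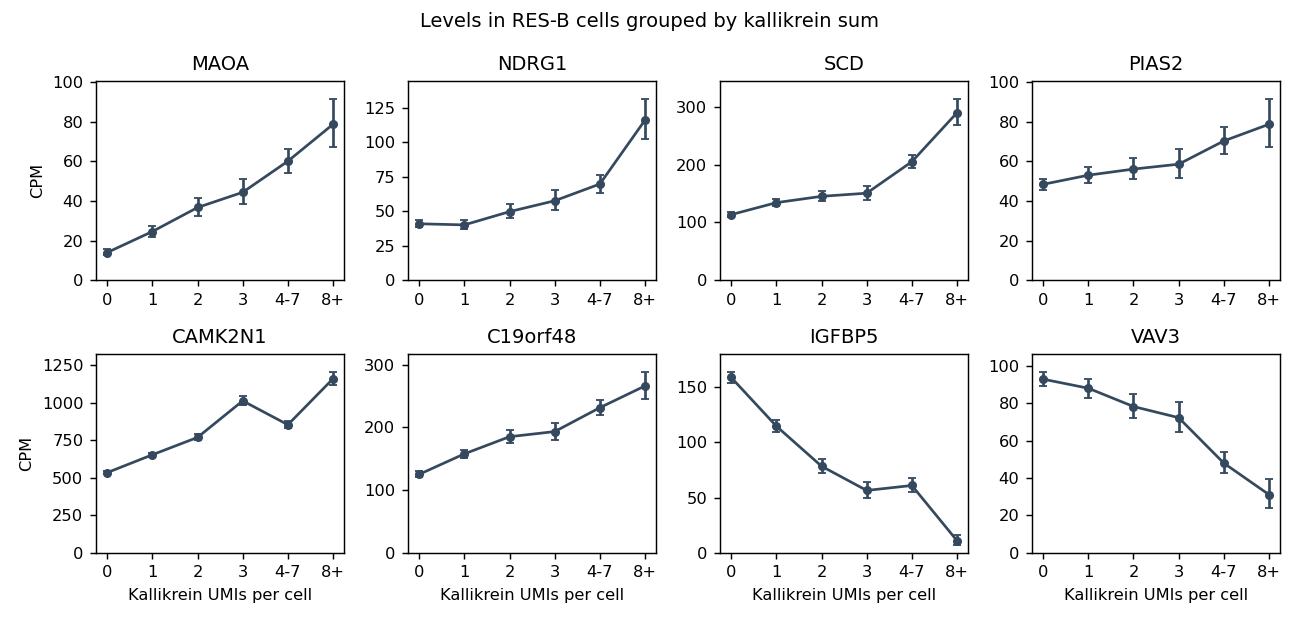
CPM (y axes, each from 0) of 8 genes in RES-B cells grouped by kallikrein sum (x axes), with 95% exact Poisson intervals. MAOA, NDRG1, SCD, PIAS2 and C19orf48 are highest at 8 or more, CAMK2N1 dips between 3 and 4 to 7, and IGFBP5 and VAV3 are lowest at 8 or more.

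IGFBP5, a secreted binding protein of insulin-like growth factors, had the lowest ratio among the named genes. It stood at 47.8 CPM in the kallikrein-expressing cells and 149 in matched zero cells, a log2 ratio of -1.64 (-1.81 to -1.48). IGFBP5 UMIs were found in 103 of 534 kallikrein-expressing cells (19.3%) and in 148 of the matched zero cells (27.7%), and 5 or more of them in 15 and 55 cells. Its level was 159 CPM at a sum of 0 and 10.98 at 8 or more. IGFBP5 was nearly absent from LNCaP (0.018 CPM) and stood at 114 CPM in RES-B and 300.1 in RES-A.

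VAV3, a guanine nucleotide exchange factor, was also lower, at 41.6 against 90.2 CPM (-1.12, -1.30 to -0.93). A VAV3 UMI was seen in 188 kallikrein-expressing and 335 matched zero cells. It too was low in LNCaP, at 0.557 CPM, against 81.0 in RES-B. IGFBP5, VAV3 and CAMK2N1 belong to a list of genes raised in RES-B, of which 5 were measured. CAMK2N1 was higher, and TSPAN8 (0.33) and HOXA10 (0.17) were under the limit. Genes of this list thus went both ways in the kallikrein-expressing cells.

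Transcripts near absent from RES-B as a whole were also missing here. H2AFJ, ETV1, PRAC1 and CBLN2 had 0 UMIs in all 541 cells. At their LNCaP levels these cells would have held 2911 H2AFJ, 726 ETV1 and 6630 PRAC1 UMIs. All RES-B cells kept held 2 PRAC1 UMIs and 0 of H2AFJ, ETV1 and CBLN2. The 0 in the 541 cells therefore adds nothing to what the library as a whole shows.

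Genes of glycolysis and the hypoxia response formed the list with the most higher genes: of 16 measured, 11 were higher and 0 lower. Their median was 0.69, and of all measured genes 1.91% were higher and 2.54% lower. NDRG1, a stress-response gene also raised by androgens, stood at 82.8 against 31.9 CPM (1.38, 1.17 to 1.59). The glycolytic genes LDHA (676 against 361 CPM, 0.91) and PGK1 (841 against 480 CPM, 0.81) and the mitophagy genes BNIP3 (0.89) and BNIP3L (0.91) were higher too. When partners were drawn from the same cluster of cells (grouped by expression without the 3 kallikreins), the median of this list was 0.27. That of NDRG1 was then 0.52, while MAOA was at 1.504 and IGFBP5 at -1.39.

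In sterol and fatty acid synthesis 4 of 15 measured genes were higher and 0 lower, against 1.91% and 2.54% of all measured genes. The list median was 0.30. SCD, which puts a double bond into fatty acids, stood at 226 against 103 CPM (1.14, 1.02 to 1.26). Within clusters the ratio of SCD was 0.62 and the median of the list 0.23. FADS2, a second desaturase (0.87), FASN, fatty acid synthase (0.68), and INSIG1, a brake on sterol synthesis (0.84), made up the rest. HMGCS1 (0.19) and SQLE (0.07), enzymes of the sterol branch, were under the limit. Among metallothioneins, which bind zinc and copper, MT1X (671 against 423 CPM, 0.67) and MT2A (0.60) were higher of 3 measured, with a list median of 0.60 that was 0.28 within clusters. MT2A was also the only higher one of 4 measured glucocorticoid targets.

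Genes of the response to amino acid shortage were lower: 8 of 15 measured, with 0 higher, against 2.54% and 1.91% of all measured genes. Their median was -0.52, and it was -0.41 within clusters and -0.27 among cells scored as G1. TRIB3, a pseudokinase of this response, stood at 74.4 against 117 CPM (-0.66), DDIT3, a stress transcription factor, at 95.7 against 147 CPM (-0.62) and ASNS, asparagine synthetase, at 75.6 against 111 CPM (-0.55). SLC7A11, a cystine transporter, differed by 0.02. In contrast, 0 of 15 endoplasmic reticulum chaperone genes passed the limit in either direction, and their median was -0.14.

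**Figure D4:**
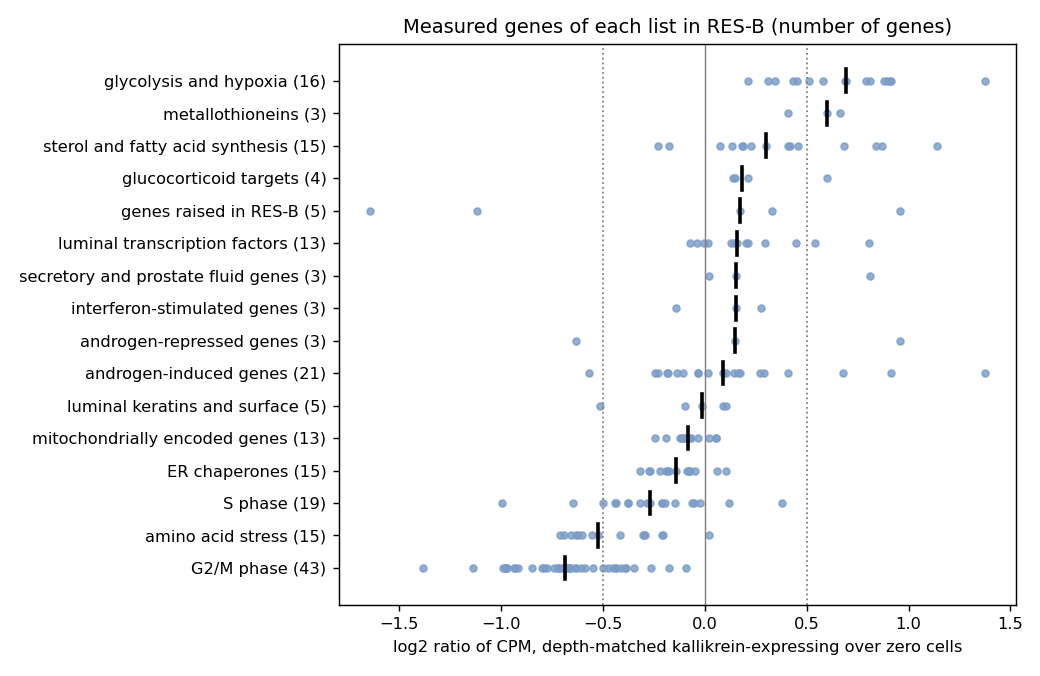
Log2 ratio of CPM in kallikrein-expressing over depth-matched zero cells (x axis) for each measured gene (points) of the lists with at least 3 measured genes (y axis, number in parentheses). Black bars are list medians, from 0.69 for glycolysis and hypoxia to -0.68 for G2/M, and dotted lines mark 0.5 and -0.5.

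Mitotic genes were lower as a list, and here the matched cells differed in cell-cycle make-up. Of 43 measured G2/M genes 31 were lower and 0 higher, against 2.54% and 1.91% of all measured genes. The list median was -0.68. CENPE, a kinetochore motor, stood at 30.5 against 79.7 CPM (-1.38) and MKI67, a proliferation marker, at 45.9 against 87.7 CPM (-0.93). By expression score, 17.4% (14.3 to 20.9) of the matched kallikrein-expressing cells and 28.1% (24.3 to 32.1) of the matched zero cells were in G2/M. Before matching, the shares were 18.1% and 22.5%. Among cells scored as G1 alone the median of the list was -0.09, and within clusters -0.22. Of 19 S phase genes 3 were lower and 0 higher, with a median of -0.27 that was -0.11 within clusters and 0.07, with the sign turned, among cells scored as G1. Cells scored as S phase were 8.05% (5.89 to 10.7) of the kallikrein-expressing and 6.55% (4.61 to 8.998) of the matched zero cells.

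The remaining lists gave few values. CD24, a surface glycoprotein, was lower (-0.51) among 5 measured luminal genes, while KRT18 (0.09) and EPCAM (-0.10) stayed under the limit. All 6 basal epithelial markers had 0 UMIs in both sets. SYT4, a synaptotagmin of vesicle release, was the single measured gene of the neuroendocrine list (114 against 57.1 CPM, 1.00, 0.84 to 1.16), and 8 of 14 genes of that list were at 0 in the kallikrein-expressing cells, including CHGA. Of the 10 immune and stromal markers 5 were at 0, including PTPRC and LYZ, and VIM alone was measured (-0.27). None of 3 interferon-stimulated or 13 mitochondrially encoded genes passed the limit, and TFF3, a secreted trefoil peptide, was the higher one of 3 secretory genes (0.81). No gene was measured in a list of 5 steroid receptors or in one of 4 genes present in RES-A and low in RES-B (NR2F1, C2orf54, EFNA5 and CBLN2).

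Most neighbours of the 3 genes on chromosome 19 gave few counts. Of the 12 other kallikrein genes none was measured, and 8 had 0 UMIs in the kallikrein-expressing cells. KLK15, beside KLK3, had 37 against 16 UMIs (1.19, 0.31 to 2.14). Of 29 genes within 200 kb of the 3 kallikreins 4 were measured, and C19orf48 alone was higher. The median of the 4 was 0.27, against -0.05 over all measured genes.

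Cells were also clustered without the 3 kallikrein genes, and kallikrein-expressing cells occurred in each of the 6 clusters. They were 23.9% (19.9 to 28.3) of cluster 6, with MAOA and IGFBP3 among its leading genes, and 20.2% (17.5 to 23.2) of cluster 3, led by NDRG1, BNIP3 and SCD. Their share was 15.3% in cluster 5, led by the replication genes CLSPN and BRCA1, which was also the deepest at a median of 16792 UMIs. It was 9.86% in cluster 4, led by the mitotic genes PLK1 and CDC20, 8.92% in cluster 1, led by RDH11, and 6.06% (4.53 to 7.91) in cluster 2, led by HSPA5 and SDF2L1. With every cell at 5000 UMIs, the kallikrein level was 222 CPM in cluster 3, 178.5 in cluster 6 and 73.9 to 99.8 in the other 4. MAOA was at 195 CPM in cluster 6 and at 4.09 to 34.1 in the rest.

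**Figure D5:**
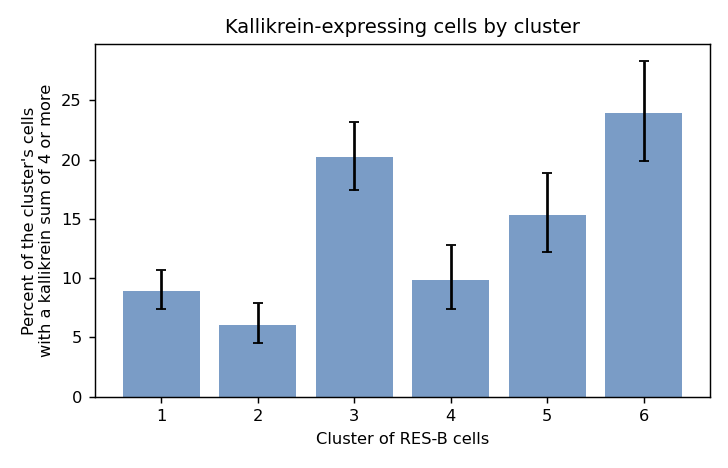
Percent of each RES-B cluster's cells (y axis) with a kallikrein sum of 4 or more, for the 6 clusters (x axis), with 95% exact binomial intervals. Clusters 6 (23.9%) and 3 (20.2%) stand highest and cluster 2 (6.06%) lowest.

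Clusters 3 and 6 held the kallikreins in different proportions. At 5000 UMIs per cell, KLK2 was at 49.0 CPM (42.3 to 56.4) in cluster 3 and 21.5 (15.6 to 28.8) in cluster 6. KLK3 was at 46.7 (40.2 to 53.96) and 59.5 CPM (49.4 to 71.1), with overlapping intervals. KLK4 was the most abundant in both, at 126.5 (115.7 to 138.1) and 97.6 CPM (84.5 to 112.1). IGFBP5, lower in the kallikrein-expressing cells as a set, was at 169.7 CPM (157.1 to 183.0) in cluster 3. In cluster 6 it was at 62.9 CPM (52.5 to 74.8).

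The same rule in LNCaP-ENZ48 picked 746 cells, of which 732 were matched to zero cells, and values are set side by side. There, 89 of 4976 measured genes (1.79%) were higher and 171 (3.44%) lower. Of the genes higher in RES-B that were measured in both, 35 of 85 (41.2%) were higher in LNCaP-ENZ48 too, which is 50% of its 70. Of those lower, 62 of 96 (64.6%) were lower in both, 40.8% of the 152 in LNCaP-ENZ48. Hypoxia genes had a median of 1.11 there and G2/M genes -1.37. The ratio of MAOA was 0.53 (0.43 to 0.64) in LNCaP-ENZ48 beside 2.15 in RES-B. SCD was also lower there (0.72 beside 1.14), NDRG1 was close (1.44 beside 1.38) and SYT4 was higher (2.67 beside 1.00).

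The doublet score, a measure of how much a cell resembles a sum of cells, was higher among kallikrein-expressing cells. The highest-scoring cells made up 7.76% of them, 1.77% of zero cells and 3.92% of all RES-B cells. These shares were not matched for depth, and the kallikrein-expressing cells were deeper (median 14254 against 11949.5 UMIs). The part of the highest-scoring cells in the results was not tested further than by leaving them out. The counts of higher and lower genes then stayed within 1.5 times of those given.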

How the data were processed

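Single-cell RNA was measured in 4 libraries (10x 3' chemistry), 1 per group. The deposited UMI counts per gene and barcode were made by the authors with Cell Ranger 3.0.2 on GRCh38 and cover 33538 genes. The members and gene lists were chosen with earlier results of these data known.

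Cells were filtered as stated in the report, with no replicates and hence no tests. The cells kept held 57709230 UMIs in RES-B, and from 55696198 to 68158371 over the libraries. CPM, ratios and exact Poisson or binomial intervals (95%) were computed in Python 3.11.15 with scipy 1.17.1, with no pseudocount and a floor of 3 UMIs where a sum was 0. Named genes were the 10 highest and 10 lowest log2 ratios at 50 CPM or more with the same sign under all alternatives, plus members of 24 lists, of which a few genes are not reported here and were left out of the list counts. Clusters came from scanpy 1.11.5 (2000 variable genes without the 3 kallikreins, 30 components, 15 neighbours, resolution 0.5). Scrublet itself called 0 doublets, and whether its scores separate doublets in this line was not tested. As an alternative, the highest scores were removed at 0.8% per 1000 barcodes. Ratios, intervals, matching and thinning were tested on simulated data. Factors from edgeR 4.0.16 and DESeq2 1.42.0 served as alternatives.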

Additional observations from a re-analysis of the deposited data

Results flagged for a closer look

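The 668 RES-B barcodes that the filter left out, with a median of 2841 UMIs, also held kallikrein UMIs, and were not used in the report. Their level was 109 CPM (96.7 to 123), near the 118 CPM of the cells kept. In the 527 barcodes left out of RES-A it was 1.47 CPM (0.179 to 5.33).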

How the results depend on the processing

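No paired analysis was possible because each group was 1 library. Thinning every cell to 5000 UMIs lowered the share with a sum of 4 or more to 2.78%. The count of higher genes was 159 at a sum of 6 or more, 329 at 8 or more, 345 with a minimum of 5 CPM and 55 with 50 CPM. The count of lower genes was 61 without matching, 71 among G1 cells, 283 at a sum of 8 or more, 464 and 60 with those minimums, and 82 in thinned cells. Settings chosen after seeing the data gave 46 higher and 49 lower genes with matching within clusters, and 55 lower with KLK2 and KLK3 alone and 223 lower with KLK4 alone. The filter of the study put KLK3 in LNCaP at 718 CPM. Among G1 cells the log2 ratio turned positive for AURKA (0.48), CDCA2 (0.12), CDCA3 (0.26), CDCA8 (0.47), CENPU (0.0397), GMNN (0.00317), HJURP (1.36), NUF2 (0.52), SMC4 (0.0459), TACC3 (0.31), TOP2A (0.35), TPX2 (0.0352) and UBE2C (0.74), as it did for KIF2C in thinned cells (0.0176) and SESN2 at a sum of 8 or more (0.14). The cause was not tested. With 1 library, counting error is the only error measured.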
